A study of Mus musculus with 20 samples.

Results

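The genes described here are 36 genes of the extracellular matrix and of hepatic stellate cells, followed through the livers of normal and db/db mice. They were taken by symbol from a list of collagens, matrix proteins, matrix-modifying enzymes and stellate cell genes, and all 36 were found, each on a single identifier, among the 46078 genes of the deposited read-count table. Normal animals were wild-type C57BL/6J mice treated with saline. The model group held db/db mice given saline, the PGZ group db/db mice given pioglitazone at 20 mg/kg, and the DLE group db/db mice given an extract of Dendrocalamus latiflorus leaves at 200 mg/kg, the db/db groups being dosed for 12 weeks. Each group had 4 liver libraries, named here as in their labels, and no shared litter, cage or processing day is recorded. All animals given pioglitazone or leaf extract carried the db/db genotype, so genotype and treatment cannot be told apart where PGZ or DLE livers are compared with normal ones. A change with PGZ or with DLE is relative to normal livers unless another group is named. Neither age, sex nor the background strain of the db/db animals was given, so genotype and background cannot be told apart in any comparison with the normal group. A group given white tea extract was not analysed here.

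Hepatic stellate cells lie between hepatocytes and the sinusoidal endothelium and store vitamin A as retinyl esters. When the liver is injured they can become myofibroblasts, which contract, proliferate and lay down fibrillar collagen, and TGF-beta and PDGF are the best-known signals for that change. Collagen chains are then processed, crosslinked by lysyl oxidases and degraded by matrix metalloproteinases, whose activity the TIMP proteins hold down. The db/db mouse lacks the long form of the leptin receptor and becomes obese and diabetic, with a fatty liver. Pioglitazone is an agonist of the nuclear receptor PPAR-gamma, which resting stellate cells also express.

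Libraries held between 16922833 (normal_409) and 25119799 (model_327) counted reads. The 10 hepatocyte markers summed to between 38769 and 114151 CPM (reads scaled to a common library size, after the TMM correction for library composition), and none of them was at 0 in any library. The db/db mutation alters splicing of Lepr, so a count over the whole gene does not check the genotype. Several db/db libraries stood apart. Saa1, an acute-phase gene of the liver, was at 27783 CPM in model_327, 10191 in model_387, 4567 in model_PGZ_328, 1974 in model_DLE_361 and 1360 in model_407, against 23.2 to 279 CPM in the remaining libraries, normal ones included. The 9 neutrophil markers summed to 2170.1 CPM in model_387 and 368 in model_PGZ_328. Hyou1, a chaperone of the endoplasmic reticulum, was at 627 CPM in model_327 and at most 83.2 elsewhere.

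All 36 genes passed the filter on low counts and were tested with 15744 genes in all. Together they held 0.0172% to 0.177% of a library's reads. Per kilobase of exon, the most abundant of them in normal liver was Dcn at 6.20 ± 2.24 CPM per kb (SD, n = 4), followed by Bgn at 4.09 ± 1.75, Sparc at 3.94 ± 1.73 and Vim at 3.41 ± 1.47, neighbours that do not differ beyond their spread. Lox stood last at 0.0194 ± 0.0251 CPM per kb, just under Timp1 at 0.0755 ± 0.0684. The db/db libraries ranged far more widely than the normal ones. Over genes with reads in every library of a group, the median ratio of the highest to the lowest library was 2.15 in the normal group, 3.12 in the model group, 4.20 with PGZ and 7.33 with DLE.

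**Figure D1:**
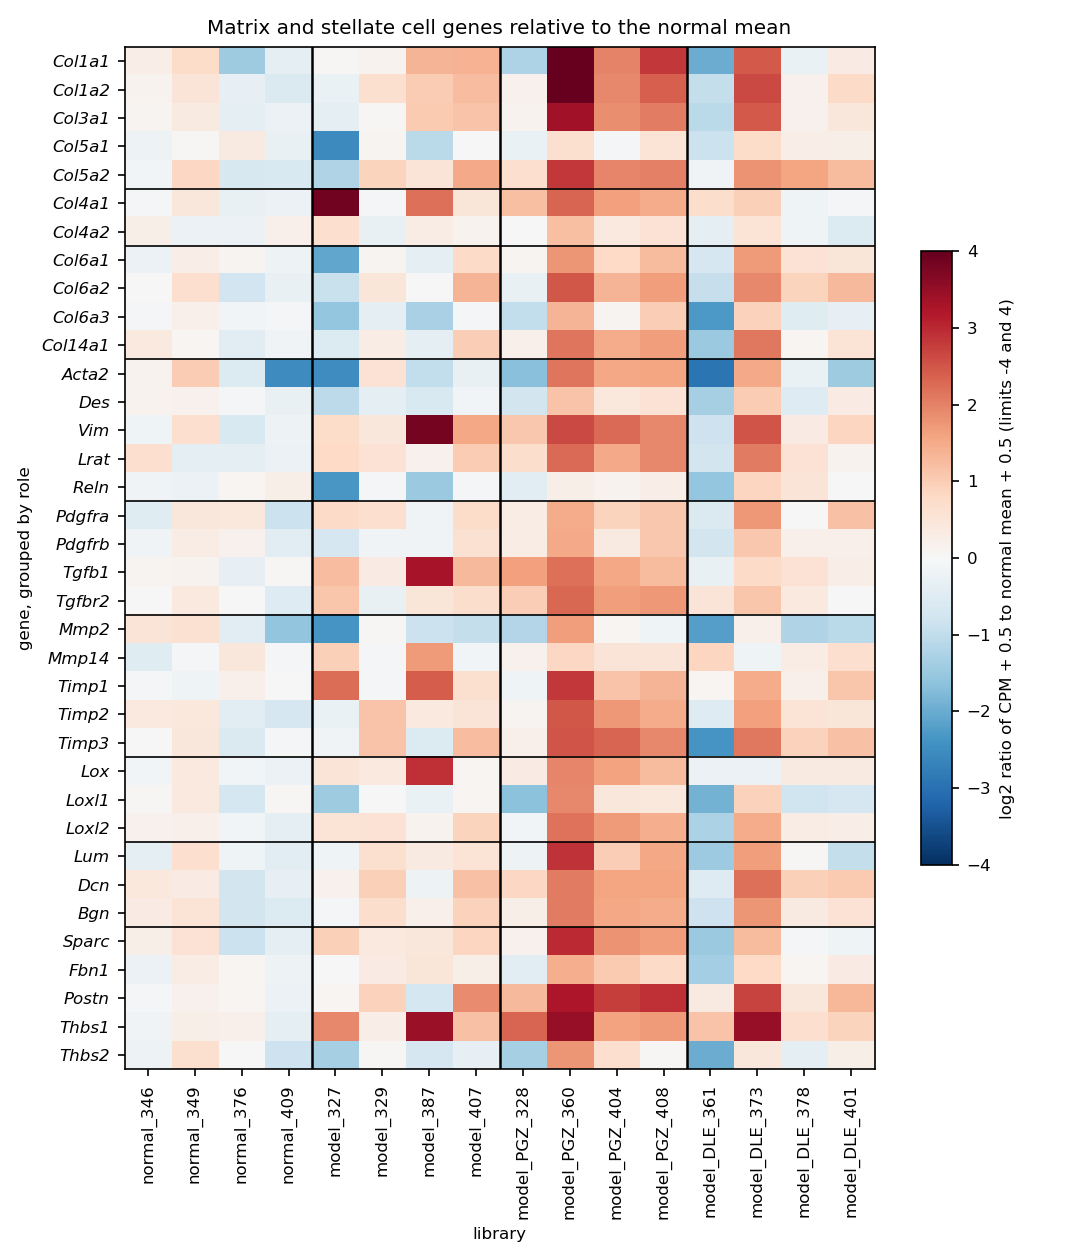
Heatmap of the 36 genes (rows, grouped by role, lines between roles) in the 16 libraries (columns, lines between groups), coloured by the log2 ratio of CPM + 0.5 to the normal mean + 0.5, with colours ending at -4 and 4. Most rows are red in model_PGZ_360, model_PGZ_404, model_PGZ_408 and model_DLE_373, and blue in model_DLE_361, where 24 genes lie below the lowest normal library.

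Among the 3 comparisons with normal livers, that of the pioglitazone-treated db/db livers held the most calls. Of the 36 genes 11 rose (30.6%), against 6.15% of all genes tested called higher, and 0 fell, against 6.08% called lower. Those that rose were the fibrillar collagen genes Col1a2, Col3a1 and Col5a2, the stellate cell gene Lrat, the TGF-beta genes Tgfb1 and Tgfbr2, the protease inhibitor gene Timp2, and Dcn, Sparc, Postn and Thbs1. All 36 log2 fold changes lay above 0, with a median of 1.74 against 0.031 over all genes. An unadjusted p under 0.05 was found for 25 of them (69.4%, against 30.2% of all genes). In 8 genes the lowest PGZ library was above the highest normal one, a pattern that 16.5% of all genes showed. Under upper quartile scaling the calls over all genes changed from 968 higher and 958 lower to 1148 higher and 672 lower, and the count of matrix and stellate genes stayed at 11. The count depended on single libraries: 2 genes were called without model_PGZ_360 (Postn and Tgfbr2), 4 without model_PGZ_404 or model_PGZ_408 and 17 without model_PGZ_328. Among normal libraries, 3 were called without normal_346, 4 without normal_349 and 2 without normal_376 or normal_409. Postn and Tgfbr2 were called without any 1 library, and the other 9 genes lost the call without model_PGZ_360, normal_376 or normal_409.

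In untreated db/db livers 3 of the 36 genes rose relative to normal, Col4a1, Tgfb1 and Thbs1 (8.33%, against 6.18% of all genes tested called higher). No gene of the list fell, against 2.90% of all genes tested called lower. The median log2 fold change was 0.61, against 0.073 over all genes, and 26 values lay above 0. In 2 genes, Tgfb1 and Thbs1, every model library was above every normal one, which 6.57% of all genes showed. This count also rested on few libraries. None was called without model_387 or without any 1 of the 4 normal libraries, 1 without model_327 (Tgfb1) and 6 without model_329.

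With the leaf extract, edgeR called 0 of the 36 genes relative to normal, against 3.54% of all genes tested in either direction. At an unadjusted p under 0.05 there were 4 (11.1%), namely Col5a2, Dcn, Postn and Thbs1, against 15.8% of all genes. DESeq2 called 1 (Thbs1) and limma voom 0. Thbs1 and Postn were higher in every DLE library than in every normal one, which 6.03% of all genes showed in that direction. Both the PGZ and the DLE values use the normal libraries that the model comparison uses, so the 3 sets of values are not independent of each other.

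**Figure D2:**
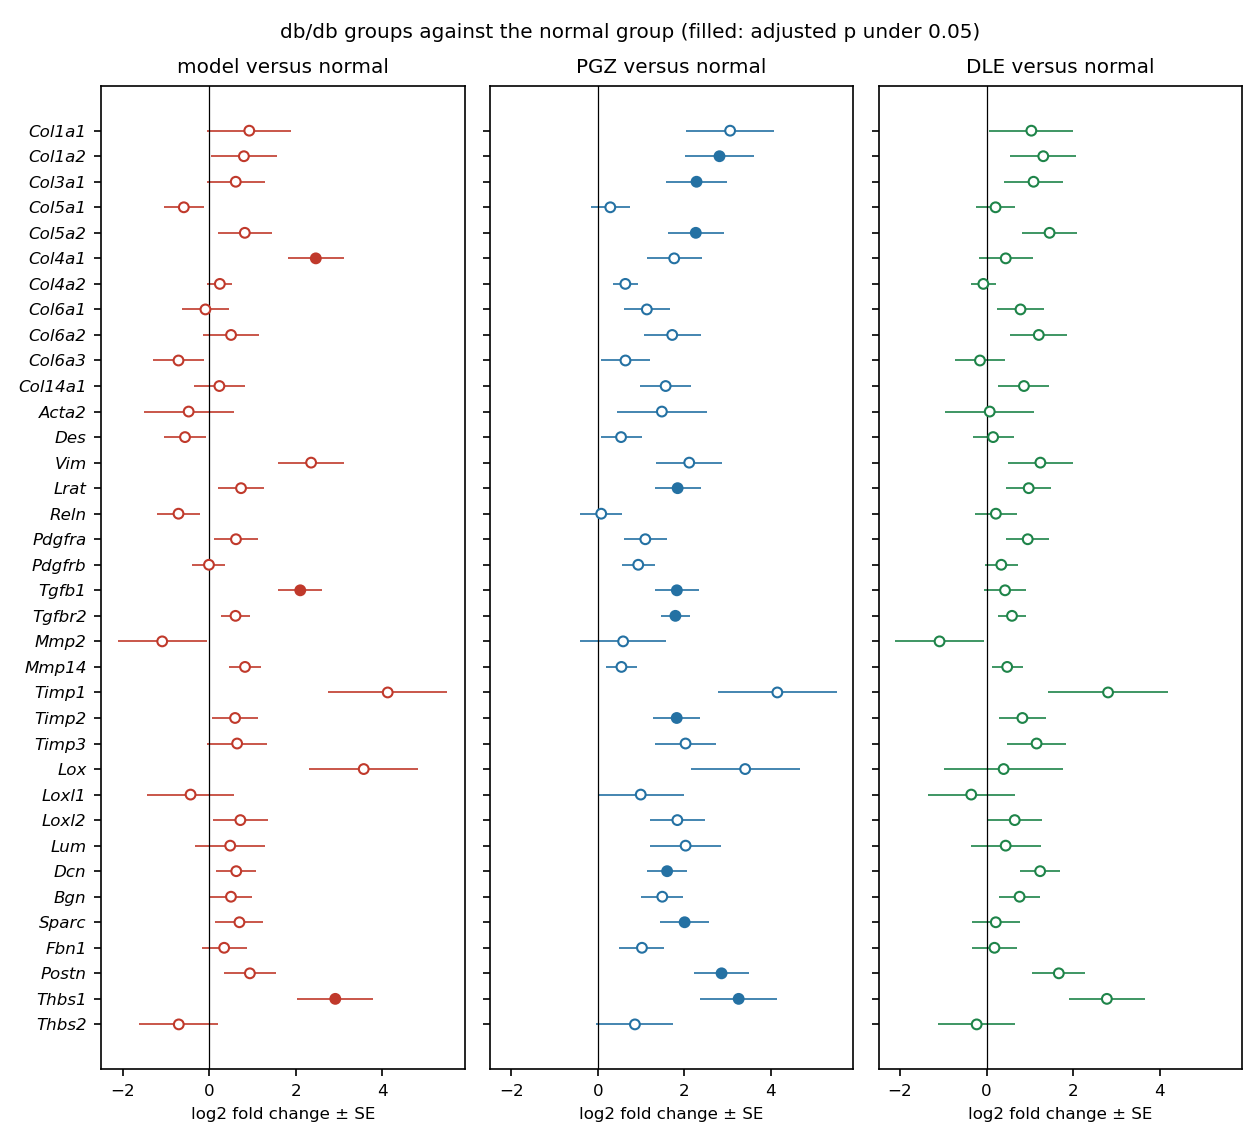
Log2 fold change against the normal group (x axis, point) with its standard error (bar) for the 36 genes (y axis) in the model, PGZ and DLE groups, n = 4 libraries per group. Filled points have an adjusted p under 0.05, which holds for 3, 11 and 0 genes, and in the PGZ panel every point lies above 0.

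Direct comparisons between the db/db groups gave no call for any of the 36 genes with edgeR. Pioglitazone against model had 14 genes at an unadjusted p under 0.05 (38.9%, against 9.78% of all genes), while 0.0127% of all genes were called at an adjusted p under 0.05. Among these 36 the smallest adjusted p was 0.29 (Tgfbr2), the median log2 fold change was 1.15 and 31 values lay above 0. DESeq2 called 0 of them there and limma voom 3, all higher with PGZ. Of these 3, Tgfbr2 had the same sign with edgeR, while Col4a1 (log2 1.12 with limma voom, -0.70 with edgeR) and Lox (log2 2.49 with limma voom, -0.17 with edgeR) had the opposite sign. With edgeR Col4a1 was at 0.52 without model_327 and Lox at 2.1 without model_387. Leaf extract against model had 3 genes at an unadjusted p under 0.05 (8.33%, against 14.3% of all genes), namely Col4a1, Tgfb1 and Lox, all with a negative fold change, and 0% of all genes called. DESeq2 called 2 of these lower, Col4a1 and Tgfb1, as did edgeR without model_329, and limma voom called 0. Without both model_327 and model_387 the value of Col4a1 was 0.20. Leaf extract against pioglitazone had 35 of 36 values below 0, a median log2 fold change of -0.87 and 5 genes at an unadjusted p under 0.05 (13.9%, against 9.63% of all genes), while 0.00635% of all genes were called. There limma voom called 1 gene lower (Tgfbr2) and DESeq2 0. These comparisons share the model or the PGZ libraries with each other.

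Promoter sequence is shown for 5 of the genes because they were called higher in PGZ than in normal livers and their windows hold no annotated exon. Each is the stretch of 250 bases just before the RefSeq start site (GRCm38.p6), 5′ to 3′ on the strand of the gene, and capitals mark matches on either strand to the motifs searched, which are spelled out after the sequences. Col3a1 is read from chr1:45311288-45311537 (plus strand), Postn from chr3:54360857-54361106 (plus strand, the second of its start sites), Tgfb1 from chr7:25686752-25687001 (plus strand), Tgfbr2 from chr9:116175364-116175613 (minus strand) and Lrat from chr3:82903975-82904224 (minus strand).
Col3a1: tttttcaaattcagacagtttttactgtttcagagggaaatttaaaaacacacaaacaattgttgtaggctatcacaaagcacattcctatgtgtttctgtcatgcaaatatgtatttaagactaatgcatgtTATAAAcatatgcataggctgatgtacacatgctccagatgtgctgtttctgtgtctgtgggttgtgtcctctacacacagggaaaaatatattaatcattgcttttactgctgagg
Postn: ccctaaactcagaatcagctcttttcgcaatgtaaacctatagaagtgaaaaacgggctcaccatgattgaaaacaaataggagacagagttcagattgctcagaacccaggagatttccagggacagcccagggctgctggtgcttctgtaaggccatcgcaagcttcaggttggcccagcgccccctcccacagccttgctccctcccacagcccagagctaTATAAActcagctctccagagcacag
Tgfb1: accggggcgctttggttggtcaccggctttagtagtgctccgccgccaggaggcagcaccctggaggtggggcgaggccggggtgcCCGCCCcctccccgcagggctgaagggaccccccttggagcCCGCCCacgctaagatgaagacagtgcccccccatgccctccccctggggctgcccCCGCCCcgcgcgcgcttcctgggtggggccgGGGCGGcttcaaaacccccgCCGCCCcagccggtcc
Tgfbr2: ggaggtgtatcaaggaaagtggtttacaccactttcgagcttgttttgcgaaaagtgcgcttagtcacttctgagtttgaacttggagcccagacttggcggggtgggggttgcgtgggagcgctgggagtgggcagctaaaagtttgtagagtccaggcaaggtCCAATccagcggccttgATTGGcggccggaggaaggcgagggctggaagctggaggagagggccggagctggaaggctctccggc
Lrat: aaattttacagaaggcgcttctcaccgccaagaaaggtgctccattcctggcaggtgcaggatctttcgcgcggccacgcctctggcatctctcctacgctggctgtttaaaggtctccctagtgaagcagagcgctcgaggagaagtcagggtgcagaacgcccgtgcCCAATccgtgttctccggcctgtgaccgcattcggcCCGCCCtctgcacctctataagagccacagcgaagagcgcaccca

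The windows differ in composition. The motif TATAAA is the core of a TATA box. The second motif, CCAAT, is bound by the factor NF-Y. The third, GGGCGG, is a GC box of the kind bound by Sp1. Col3a1 and Postn hold 1 TATAAA each, that of Col3a1 ending 112 bases and that of Postn 21 bases before the start site. The window of the first Postn start site (chr3:54359017-54359266, plus strand) holds none of the motifs and has a GC content of 40.4%. GC content is 35.2% for Col3a1 and 52.0% for Postn. Tgfb1 holds 5 matches to GGGCGG, no TATAAA and a GC content of 75.2%. Tgfbr2 holds CCAAT at 2 sites in opposite orientations, and Lrat holds CCAAT and GGGCGG once each. Windows were found for 25 of the 36 genes (27 windows). Among them 14.8% held TATAAA, 37.0% CCAAT and 55.6% GGGCGG, and over all 32851 windows of this length the shares were 12.4%, 33.8% and 32.7%. The CArG box, a motif bound by serum response factor, was in 0 of the 27 windows and in 1.47% of all windows. No matched letters overlapped between motifs in the windows shown, and a match is a description of letters only.

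Among the fibrillar collagens, the type I genes carried the widest range. Col1a1 and Col1a2 encode the chains of type I collagen, the main collagen of scar tissue. Col1a1 was at 6.28, 8.93, 1.61 and 3.98 CPM in normal_346, normal_349, normal_376 and normal_409, and at 5.40, 5.75, 14.1 and 14.3 CPM in model_327, model_329, model_387 and model_407. It was at 1.92, 109, 22.2 and 39.9 CPM in model_PGZ_328, model_PGZ_360, model_PGZ_404 and model_PGZ_408, and at 0.928, 30.7, 4.28 and 6.69 CPM in model_DLE_361, model_DLE_373, model_DLE_378 and model_DLE_401. The same order of libraries holds for every gene below. One PGZ library lay with the low normal ones and 3 lay above all of them, so the groups overlapped. The log2 fold change with PGZ relative to normal was 3.06 (SE 1.02, adjusted p = 0.062, not called).

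Col1a2 stood at 6.86, 9.09, 4.80 and 3.98 CPM in normal livers and at 5.06, 9.90, 13.0 and 15.2 CPM in model livers. With PGZ its level was 7.07, 107, 25.1 and 34.3 CPM, and with DLE 2.93, 40.7, 6.97 and 10.8 CPM. It rose 7.02-fold with PGZ relative to normal (log2 2.81, SE 0.79, adjusted p = 0.032), with model_PGZ_328 inside the normal range. Without model_PGZ_360, its highest library, the log2 fold change was 1.84 and not called. Col3a1, the single chain of type III collagen, which runs alongside type I in liver, was at 19.8, 23.3, 14.2 and 15.6 CPM in normal and at 14.1, 18.8, 37.9 and 40.9 CPM in model livers. In PGZ livers it was at 20.2, 191, 67.1 and 76.4 CPM and in DLE livers at 8.36, 101, 20.4 and 24.9 CPM. The rise with PGZ was 4.86-fold (log2 2.28, SE 0.70, adjusted p = 0.045), again with model_PGZ_328 among the normal values, and without model_PGZ_360 the log2 fold change was 1.58 and not called.

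Type V collagen is a minor fibrillar collagen that helps set fibril diameter, and only 1 of its 2 chains listed here was called. Col5a2 was at 2.16, 4.52, 1.32 and 1.37 CPM in normal, 0.730, 4.73, 3.60 and 7.57 CPM in model, 3.99, 19.7, 10.4 and 11.1 CPM in PGZ, and 2.1, 9.38, 8.04 and 6.31 CPM in DLE livers. It rose 4.80-fold with PGZ relative to normal (log2 2.26, SE 0.64, adjusted p = 0.032; log2 1.86 without model_PGZ_360, not called). Col5a1 had means of 16.8 ± 3.66 CPM (normal), 11.2 ± 7.37 (model), 20.5 ± 6.28 (PGZ) and 19.4 ± 7.91 CPM (DLE; SD, n = 4), and its log2 fold change with PGZ was 0.29 (SE 0.45, adjusted p = 0.70). Whether the 2 chains differ in their change was not tested.

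**Figure D3:**
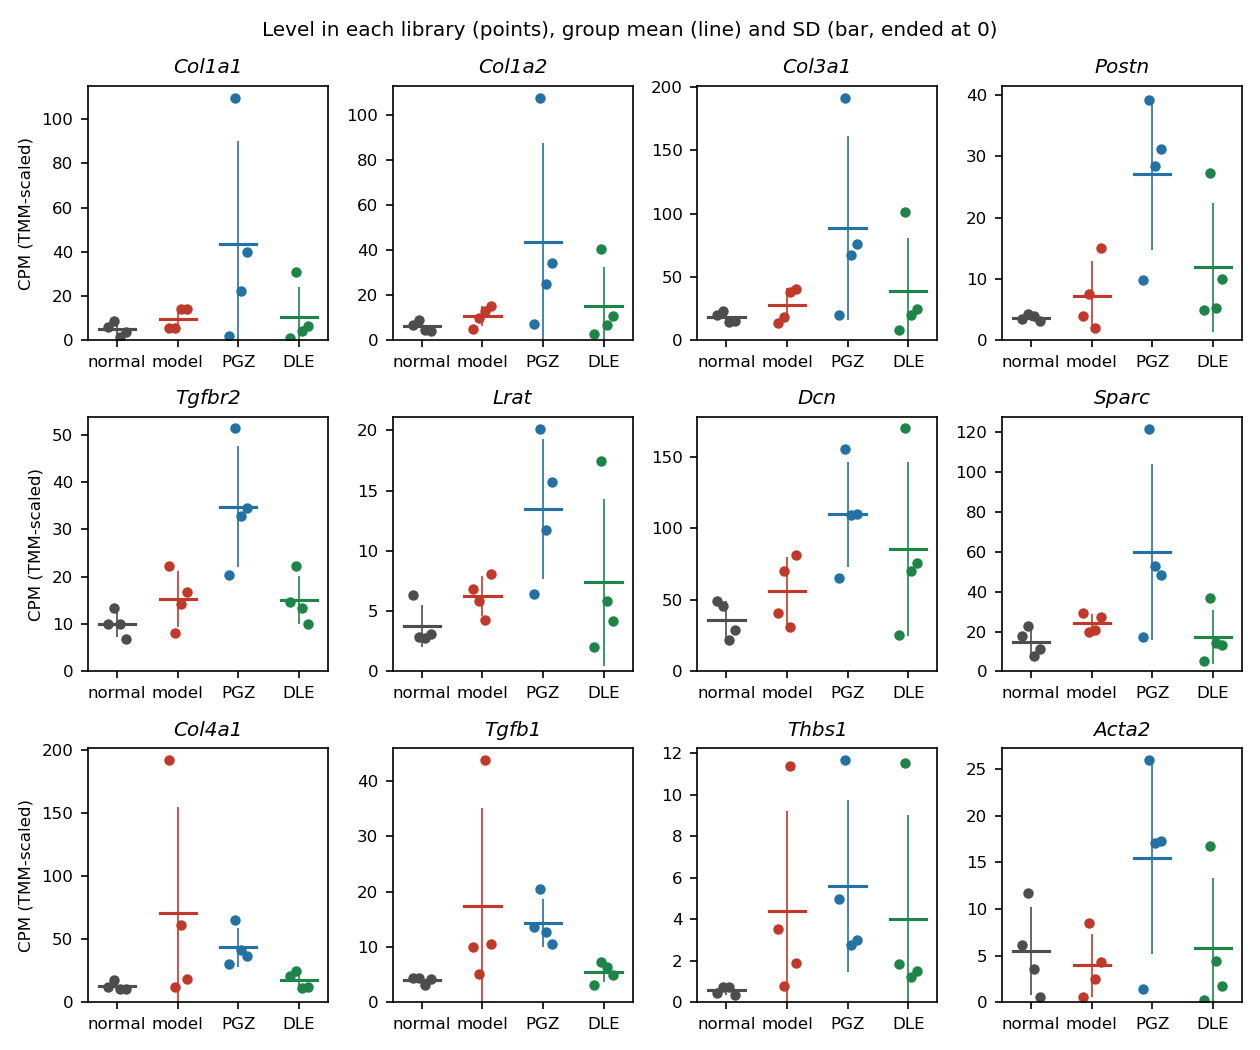
CPM (y axis, linear from 0) of 12 of the genes in each library, as points by group, with the group mean (line) and SD (bar, ended at 0). In the collagen panels the PGZ mean is set by a wide range, for Col1a1 from 1.92 to 109 CPM, and in the Col4a1 and Tgfb1 panels 1 model library lies far above the rest, at 192 and 43.7 CPM.

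Collagen IV, the network collagen of basement membranes, gave a different pattern, with its highest value in an untreated db/db liver. Col4a1 was at 12.4, 17.6, 10.4 and 10.9 CPM in normal livers and at 192, 12.0, 61.0 and 18.2 CPM in model livers. With PGZ it was at 30.3, 65.7, 41.3 and 36.9 CPM and with DLE at 21.1, 25.1, 11.2 and 12.4 CPM. It rose 5.52-fold in model relative to normal (log2 2.47, SE 0.65, adjusted p = 0.03), although model_329 lay within the normal range. Without model_327 the log2 fold change was 1.25 and no longer called. All 4 PGZ libraries were above all normal ones, and the log2 fold change there was 1.76 (SE 0.64, adjusted p = 0.08). The DLE livers lay below the PGZ livers without overlap (log2 -1.32, SE 0.63, adjusted p = 0.51). Col4a2, which encodes the partner chain and starts head to head with Col4a1 on chromosome 8 with 22 bases of shared exon, had group means from 13.8 ± 5.16 CPM (DLE) to 22.6 ± 8.24 CPM (PGZ) and was not called. Per kilobase, the ratio of Col4a1 to Col4a2 was 0.814 ± 0.320 in normal livers, 3.06 ± 3.004 in model, where it ran from 0.907 to 7.33, 1.73 with PGZ and 1.15 with DLE.

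Collagen VI forms beaded filaments around cells, and collagen XIV binds to the surface of collagen fibrils. None of Col6a1, Col6a2, Col6a3 and Col14a1 was called in any comparison. Their log2 fold changes with PGZ relative to normal ran from 0.64 (Col6a3) to 1.72 (Col6a2), in model relative to normal from -0.71 to 0.51, and with DLE relative to normal from -0.15 to 1.21. Mean Col14a1 levels were 13.6 ± 3.28 CPM (normal), 16.1 ± 8.43 (model), 40.4 ± 19.1 (PGZ) and 24.8 ± 24.5 CPM (DLE).

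Of the stellate cell genes Lrat and Reln only Lrat was called, and whether their changes differ was not tested. Lrat, the enzyme that esterifies retinol for storage and a defining gene of stellate cells, was at 6.33, 2.85, 2.74 and 3.09 CPM in normal, and 6.86, 5.81, 4.27 and 8.12 CPM in model livers. In PGZ livers it was at 6.45, 20.1, 11.7 and 15.7 CPM, and in DLE livers at 2.05, 17.5, 5.80 and 4.21 CPM. It rose 3.59-fold with PGZ relative to normal (log2 1.84, SE 0.53, adjusted p = 0.034), without overlap but with model_PGZ_328 just above normal_346. Without model_PGZ_360 the log2 value was 1.59 and not called. In these whole-liver samples, more stellate cells and more RNA per cell cannot be told apart. Reln, a secreted glycoprotein made by stellate cells in liver, gave 19.5, 18.2, 22.6 and 25.5 CPM in normal, 3.84, 20.4, 7.41 and 20.8 CPM in model, 15.5, 25.2, 23.8 and 25.9 CPM in PGZ and 6.99, 39.6, 31.0 and 21.9 CPM in DLE livers. Its low values were those of model_327, model_387 and model_DLE_361. The log2 fold change with PGZ was 0.078 (95% interval -0.94 to 1.10, adjusted p = 0.93).

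Contractile and cytoskeletal genes were not called. Acta2 encodes smooth muscle alpha-actin, the usual marker of myofibroblasts, which vascular smooth muscle also makes. It was at 6.12, 11.8, 3.62 and 0.549 CPM in normal, 0.584, 8.50, 2.53 and 4.38 CPM in model, 1.40, 26.0, 17.1 and 17.3 CPM in PGZ, and 0.293, 16.7, 4.48 and 1.77 CPM in DLE livers. The normal livers alone spanned a 21.5-fold range, and the log2 fold change with PGZ was 1.48 (SE 1.04, adjusted p = 0.35). Des, the intermediate filament gene desmin, was at 5.33, 5.54, 4.65 and 3.84 CPM in normal and 2.09, 3.60, 2.98 and 4.47 CPM in model livers. With PGZ it was at 2.74, 11.2, 6.65 and 7.53 CPM, and with DLE at 1.61, 10.4, 3.26 and 6.27 CPM, all groups overlapping. Vim, vimentin, which leukocytes also express, averaged 16.2 ± 6.95 CPM in normal and 82.9 ± 102 CPM in model livers, where model_387 alone had 234 CPM (log2 2.36, SE 0.77, adjusted p = 0.065).

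Of the signalling genes, Tgfbr2 and Tgfb1 were called. Tgfbr2, the type II receptor that binds TGF-beta, was at 9.92, 13.4, 9.98 and 6.86 CPM in normal, and 22.3, 8.01, 14.2 and 16.8 CPM in model livers. With PGZ it was at 20.4, 51.5, 32.9 and 34.4 CPM, and with DLE at 14.7, 22.2, 13.4 and 10.1 CPM. The rise with PGZ was 3.46-fold (log2 1.79, SE 0.34, adjusted p = 0.0037), without overlap, and it was called in all 16 alternative settings that bear on it. Relative to model the log2 fold change was 1.18 (SE 0.33, adjusted p = 0.29), and limma voom called it there.

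Tgfb1, the ligand of that receptor, stood at 4.38, 4.46, 3.13 and 4.18 CPM in normal and at 10.1, 5.16, 43.7 and 10.6 CPM in model livers. In PGZ livers it was at 13.7, 20.4, 12.7 and 10.5 CPM and in DLE livers at 3.18, 7.23, 6.31 and 5.01 CPM. It rose 4.31-fold in model (log2 2.11, SE 0.50, adjusted p = 0.019) and 3.55-fold with PGZ (log2 1.83, SE 0.50, adjusted p = 0.027), each relative to normal and each without overlap. Leukocytes and platelets also make this cytokine, and model_387, the library with the highest Tgfb1, had the highest neutrophil and Kupffer cell markers; their part in the result was not tested. Without model_387 the log2 fold change in model was 1.09 and not called, and without model_PGZ_360 that with PGZ was 1.61 and not called. The DLE livers lay below all PGZ livers (log2 -1.40, SE 0.49, adjusted p = 0.48).

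The PDGF receptors, which drive stellate cell growth and migration, were not called. Pdgfrb was at 8.66, 12.0, 11.0 and 7.06 CPM in normal, 5.89, 8.77, 8.78 and 15.2 CPM in model, 11.9, 28.6, 12.6 and 20.9 CPM in PGZ and 5.62, 21.1, 11.1 and 11.2 CPM in DLE livers. In model relative to normal its log2 fold change was -0.0044 (95% interval -0.81 to 0.80), and with PGZ 0.93 (SE 0.38, adjusted p = 0.12). Pdgfra had group means from 2.99 ± 1.48 CPM (normal) to 6.42 ± 2.25 CPM (PGZ).

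Of the degradation genes only the inhibitor gene Timp2 was called. Timp2 was at 4.22, 4.30, 2.1 and 1.78 CPM in normal, 2.53, 7.53, 4.18 and 4.64 CPM in model, 3.37, 19.6, 11.4 and 9.67 CPM in PGZ and 2.0, 10.8, 4.78 and 4.50 CPM in DLE livers. It rose 3.54-fold with PGZ relative to normal (log2 1.82, SE 0.54, adjusted p = 0.039; log2 1.39 without model_PGZ_360, not called), with model_PGZ_328 inside the normal range. Timp1, an inhibitor commonly raised in fibrotic liver, was close to the limit of detection in normal liver, at 0.0528, 0, 0.147 and 0.0686 CPM, or 0 to 3 reads per library. It was at 2.14, 0.0538, 2.57 and 0.383 CPM in model, 0, 3.51, 0.748 and 0.958 CPM in PGZ and 0.0977, 1.07, 0.153 and 0.715 CPM in DLE livers. High values sat in single libraries and the groups overlapped, so log2 fold changes of 4.13 (SE 1.38, adjusted p = 0.069) in model and 4.15 (SE 1.38, adjusted p = 0.058) with PGZ were not called. Timp3, whose exons share 1733 bases with the antisense gene Syn3, averaged 9.49 ± 2.81 CPM in normal and 38.7 ± 19.9 CPM in PGZ livers and was not called.

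The proteinase genes were not called. Mmp14, a membrane-bound collagenase that activates the MMP2 proenzyme, had means of 16.8 ± 4.81 CPM (normal), 29.9 ± 18.8 (model), 24.5 ± 4.63 (PGZ) and 23.4 ± 7.12 CPM (DLE), and its fold change had an adjusted p of 0.15 in model. Mmp2, the gelatinase, averaged between 0.958 and 3.07 CPM with SDs of 0.888 to 3.14 CPM.

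The crosslinking enzymes, which oxidise lysines in collagen and elastin, were not called. Lox was near the limit of detection in normal and DLE livers and in model livers other than model_387. With PGZ it was at 0.241 CPM in model_PGZ_328 and at 0.912 to 1.77 CPM in the other libraries. It averaged 0.0927 ± 0.120 CPM in normal livers, model_387 held 4.02 CPM, and PGZ livers averaged 1.06 ± 0.651 CPM (log2 3.41, SE 1.26, adjusted p = 0.084). Loxl2 averaged 1.29 ± 0.318 CPM in normal and 4.63 ± 2.68 CPM in PGZ livers (log2 1.84, SE 0.64, adjusted p = 0.067), and Loxl1 1.36 ± 0.538 and 2.70 ± 2.77 CPM.

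Decorin, biglycan and lumican are small leucine-rich proteoglycans that bind collagen fibrils, and only Dcn was called. Dcn was at 48.9, 45.5, 21.8 and 28.7 CPM in normal and 41.0, 70.1, 31.1 and 81.5 CPM in model livers. With PGZ it was at 65.2, 155, 109 and 110 CPM and with DLE at 25.3, 170, 70.3 and 76.0 CPM. It rose 3.03-fold with PGZ relative to normal (log2 1.60, SE 0.47, adjusted p = 0.037; log2 1.39 without model_PGZ_360, not called), without overlap, and its value in model_DLE_373 was the highest of all 16 libraries. With PGZ relative to normal, log2 fold changes of 1.49 for Bgn (SE 0.49, adjusted p = 0.055) and 2.03 for Lum (SE 0.82, adjusted p = 0.11) were not called.

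Matricellular proteins sit in the matrix without forming its scaffold and modulate how cells meet it. Postn, periostin, which binds collagen and integrins, was at 3.54, 4.30, 3.96 and 3.09 CPM in normal and 3.94, 7.58, 2.07 and 15.1 CPM in model livers. In PGZ livers it was at 9.77, 39.0, 28.3 and 31.2 CPM and in DLE livers at 4.89, 27.2, 5.29 and 10.05 CPM. The rise with PGZ was 7.26-fold relative to normal (log2 2.86, SE 0.64, adjusted p = 0.01), without overlap and called in all 16 alternative settings. Relative to model it was 3.78-fold higher (log2 1.92, SE 0.61, adjusted p = 0.38) and not called, and DLE relative to normal gave a log2 value of 1.67 (SE 0.61, adjusted p = 0.18).

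Thbs1, thrombospondin 1, an activator of latent TGF-beta that platelets and macrophages also release, rose in both the model and the PGZ group. It was at 0.475, 0.753, 0.734 and 0.343 CPM in normal, 3.55, 0.807, 11.4 and 1.91 CPM in model, 4.95, 11.7, 2.77 and 3.01 CPM in PGZ, and 1.86, 11.5, 1.22 and 1.51 CPM in DLE livers. No db/db library overlapped the normal ones, though model_329 exceeded them narrowly. The rises relative to normal were 7.55-fold in model (log2 2.92, SE 0.88, adjusted p = 0.049) and 9.55-fold with PGZ (log2 3.26, SE 0.89, adjusted p = 0.027), and the DLE value was 6.88-fold (log2 2.78, SE 0.88, adjusted p = 0.10, not called). Without model_327 or model_387 Thbs1 was no longer called in model, at log2 fold changes of 3.0 and 1.84, nor with PGZ without model_PGZ_360, at 2.61. Sparc, a collagen-binding glycoprotein, was at 17.7, 22.6, 7.93 and 11.4 CPM in normal and 29.1, 19.9, 20.8 and 27.3 CPM in model livers. With PGZ it was at 17.03, 122, 52.7 and 48.3 CPM and with DLE at 5.03, 36.9, 14.2 and 13.1 CPM. It rose 4.02-fold with PGZ (log2 2.01, SE 0.57, adjusted p = 0.034; log2 1.40 without model_PGZ_360, not called), with overlap. Fbn1 and Thbs2, which encode fibrillin 1 and thrombospondin 2, were not called, with log2 fold changes of 1.02 and 0.86 with PGZ.

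Much of the variation lay between animals of 1 group. Summed over the 36 genes, the level was 336, 399, 264 and 264 CPM in normal, 498, 410, 680 and 561 CPM in model, 405, 1603, 865 and 915 CPM in PGZ, and 203, 1061, 407.1 and 445 CPM in DLE livers. In model_PGZ_360, model_PGZ_404 and model_PGZ_408, 35, 32 and 34 of the genes were above the highest normal library, but in model_PGZ_328 only 8. The extract group held both extremes: 32 genes lay above the normal range in model_DLE_373 and 24 below it in model_DLE_361. Of the 36 genes, 27 had their highest value of all 16 libraries in model_PGZ_360, and 19 their lowest in model_DLE_361.

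The genes varied together within groups. Over all pairs the median Pearson correlation of deviations from group means (log2 scale, 16 libraries) was 0.68, and the most alike were Col1a2 and Col3a1 at 0.98. All genes of a library share its depth and cell composition, both of which differ between libraries. Their part in these correlations was not tested, and no such correlation over all genes is given. Mmp14 and Col4a1 did not follow the others, with mean correlations of -0.17 and 0.032, and Tgfb1, Lox and Thbs1 followed weakly at 0.27, 0.24 and 0.34. Per kilobase, the ratio of Col1a1 to Col1a2 was 1.53 ± 0.600 (normal), 1.74 ± 0.440 (model), 1.58 ± 0.740 (PGZ) and 1.09 ± 0.350 (DLE), ranges that overlap.

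Markers of other liver cells differed between the same libraries. Across 16 further stellate cell markers the summed level was 292 to 338 CPM in normal livers. It was 238 to 435 CPM in model, 350 to 522 CPM in PGZ and 266 to 612 CPM in DLE livers. With PGZ 2 of the 15 tested were called higher and 0 lower (median log2 fold change 0.50), where 6.15% of all genes were called higher and 6.08% lower, shares that also stand behind the PGZ counts of the lists that follow. All PGZ livers lay above the normal range of this summed level. The 13 endothelial markers summed to 246 to 275 CPM in normal and 305 to 445 CPM in PGZ livers, and 4 of 13 rose with PGZ, among them Lyve1 (log2 2.86, SE 0.65, adjusted p = 0.01). They were lowest in model_DLE_361 and model_327, at 132 and 151 CPM. The 9 smooth muscle markers summed to 258 to 296 CPM in normal and 122 to 196 CPM in PGZ livers, and to 30.6 CPM in model_327. Most of that sum was Mylk, a myosin kinase gene, at 246 ± 18.9 CPM in normal and 123 ± 24.0 CPM in PGZ livers. Of the 8 tested smooth muscle markers 7 had values above 0 with PGZ (median log2 fold change 0.69), and none was called in either direction.

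Immune cell markers differed as well. The 10 Kupffer cell markers summed to 82.6 to 242 CPM in normal livers, and to 201 to 1902 (model), 260 to 614 (PGZ) and 185 to 290 CPM (DLE) in db/db livers. Of these, 9 of 10 rose in model, against 6.18% of all genes, and 4 of 10 with PGZ. Markers of recruited macrophages summed to 88.4 to 105 CPM in normal livers, and to 113 to 1335 (model), 199 to 454 (PGZ) and 94.2 to 146 CPM (DLE) in db/db livers. Of these, 7 of 10 rose in model and 5 of 10 with PGZ. The 9 neutrophil markers summed to 0.950 to 1.51 CPM in normal and to at most 57.2 CPM in libraries other than model_387 and model_PGZ_328. Among 8 tested neutrophil markers 4 rose in model and 0 with PGZ, and among 8 tested lymphocyte markers 2 and 0. Portal fibroblast markers, 11 genes, summed to 10.5 to 25.7 CPM in normal and 22.7 to 67.6 CPM in PGZ livers, 2 of them called higher. The 6 mesothelial markers ran from 1.74 to 8.66 CPM in normal and 4.38 to 10.6 CPM in PGZ livers, the 10 lymphocyte markers from 8.23 to 17.3 and 18.6 to 41.8 CPM, and the 7 cholangiocyte markers from 50.2 to 84.5 and 32.1 to 35.4 CPM. The part of these cell types in the results above was not tested.

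**Figure D4:**
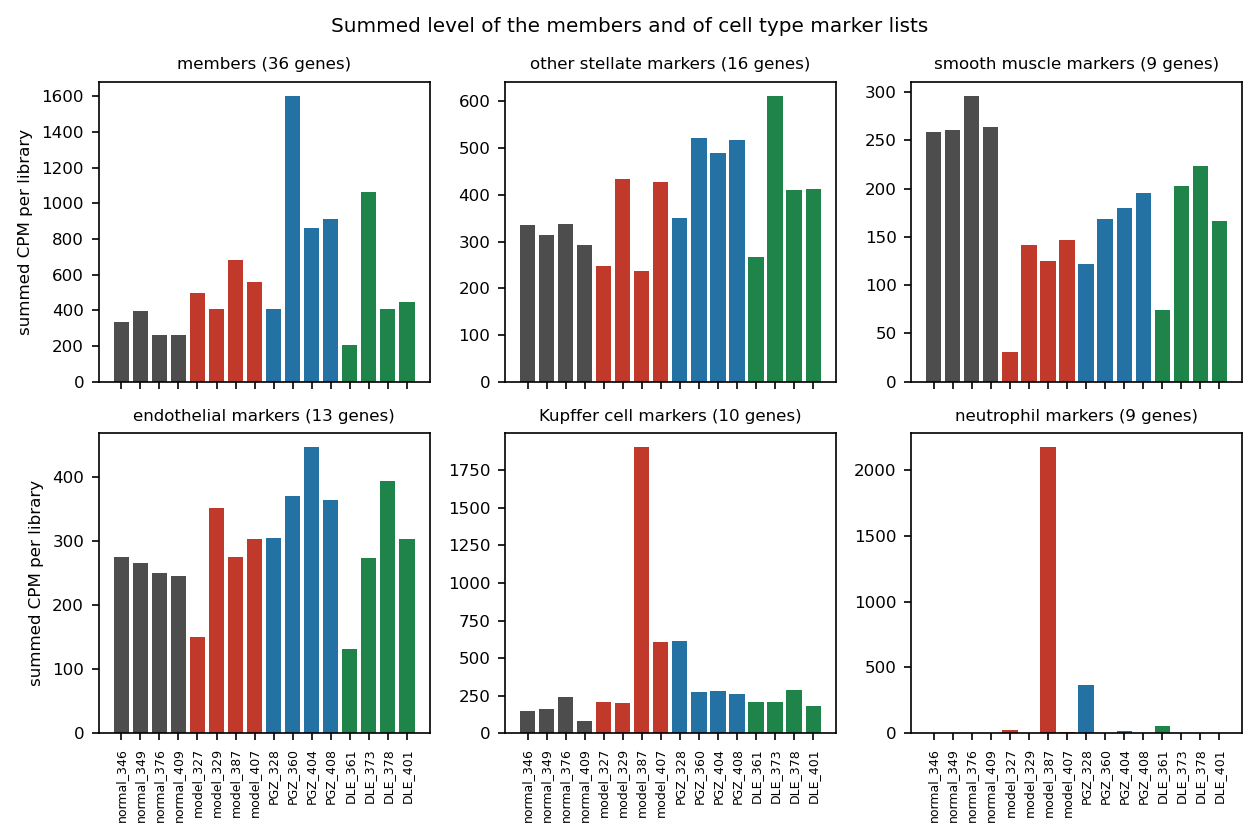
Summed CPM per library (y axis, linear from 0) of the 36 genes and of 5 lists of cell type markers, bars coloured by group (grey normal, red model, blue PGZ, green DLE). The 36 genes reach 1603 CPM in model_PGZ_360 and 203 CPM in model_DLE_361, while the Kupffer cell and neutrophil lists peak in model_387, at 1902 and 2170.1 CPM.

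Counts for other genes of the same pathways stand against 6.18% of all genes called higher and 2.90% lower in model, and 6.15% higher and 6.08% lower with PGZ. Of 27 tested genes of TGF-beta signalling and its targets, 2 rose and 1 fell both in model and with PGZ relative to normal, shares near those of all genes. Nox4, an NADPH oxidase, fell in both comparisons (log2 -1.40, SE 0.33, adjusted p = 0.017 in model, and log2 -1.29, SE 0.32, adjusted p = 0.018 with PGZ). Ccn2, a matricellular growth factor and TGF-beta target, rose with PGZ (log2 2.09, SE 0.65, adjusted p = 0.045). None of the 4 PDGF ligand genes was called.

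Among 27 other matrix protein genes 4 rose with PGZ and 2 in model, Prelp in both, and none fell. Efemp2, a fibulin needed for elastic fibres, rose with PGZ from 1.283 ± 0.292 to 4.42 ± 1.52 CPM (log2 1.78, SE 0.44, adjusted p = 0.017). Of 23 other protease and inhibitor genes, 6 rose and 1 fell in model, and 5 rose with PGZ. Mmp7, matrilysin, rose in all 3 db/db groups relative to normal, at log2 fold changes of 4.71, 4.13 and 3.23 in model, PGZ and DLE (adjusted p = 0.005, 0.0063 and 0.044), from 0.165 ± 0.191 CPM in normal livers. Of 11 other collagen genes 2 rose and 1 fell in model, and 1 rose and 1 fell with PGZ. Col12a1, a fibril-associated collagen, rose in both (log2 1.71 and 2.22, adjusted p = 0.024 and 0.0048), and Col27a1 fell with PGZ (log2 -1.67, SE 0.48, adjusted p = 0.034). Col27a1 averaged 258 ± 20.8 CPM in normal and 80.7 ± 19.3 CPM in PGZ livers. Its mean was also low in model livers, at 97.0 ± 55.6 CPM, where it was not called. Of 10 retinoid storage genes 1 rose with PGZ, Pnpla3, a lipase that acts on retinyl esters (log2 3.12, SE 0.73, adjusted p = 0.013). In the crosslinking list of 3, Tgm2 rose in model (log2 2.56, SE 0.69, adjusted p = 0.032). Its model livers ran from 48.2 to 1025 CPM and overlapped the normal ones, at 52.1 to 73.0 CPM. Tgm2 was called there in 7 of 17 alternative settings, with log2 fold changes from 0.25 to 2.92.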

How the data were processed

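TRIzol and a DNase step gave the liver RNA, per the labels' protocols. The authors deposited raw counts, whole numbers of reads for each Ensembl gene. The submitters' processing notes list HISAT2 2.1.0, StringTie 1.3.3b, FastQC 0.11.5, CASAVA 1.8.2 and DESeq2 1.28.0, and the build GRCm38, but not which step made the counts. The strand setting, the annotation release and how multi-mapping reads were handled are not given in the sources used here, so genes with overlapping or antisense partners (Timp3, Fbn1, Pdgfra and others) are uncertain. Of the 46078 identifiers 45143 matched GENCODE M21, used for coordinates and exon lengths.

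Counts were analysed with edgeR 4.0.16 and limma 3.58.1 in R 4.3.3: filterByExpr (15744 genes), TMM scaling, and 1 robust quasi-likelihood fit of all 16 libraries with a coefficient per group. Adjusted p-values come from edgeR's two-sided quasi-likelihood test, corrected by Benjamini-Hochberg across the tested genes of a comparison, except where DESeq2 or limma is named. Genes under 0.05 were called. Levels are CPM after TMM scaling, and correlations use log2(CPM + 0.5). Nothing in the labels says that libraries came from separate batches, and p-values measure only the spread between these libraries. The lowest level that 3 reads over a group allow is 0.0333 to 0.0413 CPM, which covers counting error only. Replicate counts differed by more than sampling noise for every pair of a group. Library numbers are animal numbers that no 2 groups share.

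The genes, the pathway and marker lists and the 4 libraries left out together were chosen with earlier results of these data known. Every listed gene was accounted for. Values in every library were given for genes called in at least 1 of the 6 comparisons and for Col1a1, Col3a1, Col4a1, Acta2, Des, Lrat, Reln, Pdgfrb, Tgfb1 and Timp1. From other lists, up to 3 called genes with the smallest p per list and comparison could be named. Saa1, Hyou1 and Mylk were chosen after their values were seen. Of 279 other list genes 278 were found. The procedure was tested on simulated counts. Alternatives were RLE and upper quartile scaling, no filter, a filter of at least 1 CPM in 4 libraries, only the compared groups, DESeq2 1.42.0, limma voom with quality weights, and libraries left out.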

Additional observations from a re-analysis of the deposited data

Results flagged for a closer look

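Within groups of 4, a library stood far from the other 3 in 5 of 144 gene and group combinations (gap over range above Dixon's critical value). At a rate of 5 in 100 chance gives 7.2 such cases. In model_387, the model library with 2170.1 CPM of neutrophil markers, Vim was at 234 CPM, Tgfb1 at 43.7 CPM and Lox at 4.02 CPM, each far above the other model libraries. In normal_346 Lrat was at 6.33 CPM, above the other normal libraries. Thbs1 was at 11.5 CPM in model_DLE_373, far above the other DLE libraries, the library in which 32 of the 36 genes were above the normal range.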

How the results depend on the processing

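Over the 36 genes and 6 comparisons, none of the 14 called values changed sign under any alternative run, and 66 of 216 values did so in at least 1. For the genes named in the text, 939 recomputed values kept sign and side of the threshold, 152 lost the call, 55 gained it and 26 changed sign. In PGZ relative to model, Col4a1 (-0.70) became 1.12 and Lox (-0.17) 2.49 with limma voom, both called. With 1 library left out they ranged from -1.05 to 0.52 (Col4a1) and from -0.58 to 2.1 (Lox, 0.16 without model_PGZ_328), without model_327 and model_387 they were 1.52 and 2.41, and without these, model_PGZ_328 and model_DLE_361 1.64 and 2.72. With those 2 and those 4 libraries left out Col4a1 in DLE relative to model (-2.02) was 0.20 and 0.091, and Mmp14 in model relative to normal -0.10 and -0.096. Pdgfrb in model relative to normal (-0.0044) was 0.0049 with RLE scaling, 0.021 with upper quartile scaling, 0.0054 with no filter, 0.020 with only the 2 groups, 0.0050 with DESeq2, 0.54 with limma voom, -0.30 to 0.17 with 1 library left out, and 0.31 without the 2 or the 4 libraries. The count of genes higher in model than in normal livers (3) was 1 with no filter, 0 with only the 2 groups, 6 with DESeq2, 0 to 6 with 1 library left out, 0 without model_327 and model_387, and 1 without these, model_PGZ_328 and model_DLE_361. The count higher with PGZ than in normal (11) was 4 with no filter, 22 with only the 2 groups, 22 with DESeq2, 27 with limma voom, 2 to 17 with 1 library left out and 28 without the 4 libraries. Over all genes, 727 of 25770 were higher with PGZ with no filter. In model 669 of 25770 were higher with no filter and 110 of 14486 with only the 2 groups. Apart from these counts and those for upper quartile scaling, calls over all genes are not given here. The other counts, among them 22, 27 and 28 with PGZ, therefore cannot be set against a share of all genes. Counts of 0 became 3 higher in PGZ than in model with limma voom, 1 lower in DLE than in PGZ with limma voom and 3 without the 4 libraries, 1 higher in DLE than in normal with DESeq2 and 7 without the 4 libraries, and 2 lower in DLE than in model with DESeq2 and 0 to 2 with 1 library left out. The causes were not tested. Fits with 1 library fewer have fewer samples. Col4a1 in model ranged from a log2 fold change of 0.24 to 2.82. No paired analysis was possible because library numbers name single animals and no group shares them. Depth limits Timp1, Lox, Mmp2, Loxl1 and Thbs2, with 0 reads in at least 1 library each.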

Other observations

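The basement membrane laminin genes Lama3 and Lamb3 differed between normal and db/db livers in opposite directions. Lama3 fell in all 3 db/db groups relative to normal, from 28.3 ± 15.5 CPM to 2.04 ± 1.36 in model, 1.33 ± 0.519 with PGZ and 1.16 ± 0.703 CPM with DLE (SD, n = 4), with edgeR adjusted p = 0.0016, 0.00038 and 0.00043. Lamb3 rose in all 3, from 2.77 ± 0.926 CPM to 7.09 ± 3.11, 11.7 ± 0.831 and 12.0 ± 3.82 CPM (adjusted p = 0.029, 0.0021 and 0.003). These comparisons share the normal libraries. Nidogen 1 (Nid1), which links laminin to collagen IV, rose with PGZ from 2.46 ± 1.14 to 24.2 ± 16.2 CPM (log2 3.29, SE 0.64, adjusted p = 0.0044). Of 20 basement membrane genes tested, 2 rose and 1 fell in model, where 6.18% of all genes rose and 2.90% fell. With PGZ 3 rose and 1 fell, against 6.15% and 6.08%, and with DLE 1 rose and 1 fell, against 3.54% of all genes in either direction.

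Of 22 tested genes of collagen processing, 1 rose in model, 3 rose and 2 fell with PGZ, and 2 rose with DLE, to be read against the same shares of all genes. Plod1, a lysyl hydroxylase of collagen, rose in all 3 db/db groups, at log2 fold changes of 0.73, 0.64 and 0.71 (adjusted p = 0.012, 0.015 and 0.017). Crtap, a subunit of the prolyl 3-hydroxylase complex, rose with PGZ from 4.69 ± 1.59 to 12.5 ± 3.38 CPM (log2 1.41, SE 0.31, adjusted p = 0.0089).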
